A study of Mus musculus with 9 samples.

Results

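The protein factors that drive translation on cytosolic ribosomes were examined in retinal endothelial cells of mouse pups. The members were the genes whose symbol in the platform annotation begins with Eif and a digit or with Eef1 or Eef2, together with Etf1 and Gspt1, and only probe sets with exactly 1 symbol were used. They comprised 61 genes measured by 140 probe sets, out of 15964 genes with 1 symbol in the series, with 51 genes on array design A, 25 in design B and 22 in design C. A further 7 probe sets that list a member beside another gene were left out, so that Eif4a3 and Eif4ebp3 are not among the genes described and Eef1a1 and Eef1g each lack a probe set. The rule uses symbols and no signal values.

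All 9 arrays measured GFP-bearing cells, labelled endothelial and isolated by flow sorting from retinas of homozygous Tie2-GFP mice at postnatal day 8, after intraperitoneal APB5 from day 0 to day 7. APB5 neutralizes PDGFRb, the receptor through which pericytes are recruited to vessels, and the GFP follows the Tie2 promoter, which is active in endothelium and also in some blood cells. The 3 Affymetrix designs A, B and C of the MGU74v2 series carry different probe sets, and each was hybridised with 3 replicates of amplified RNA. Every array came from antibody-treated animals with pooled retinas, so the samples analysed here hold no untreated group, and no value below measures an effect of the antibody. The labels do not say whether replicates came from separate pools, so each SD is the spread between arrays and may be technical.

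Protein synthesis begins when initiation factors (eIFs) bring the initiator tRNA, the small ribosomal subunit and a capped mRNA together and the start codon is found. Elongation factors (eEFs) then deliver aminoacyl-tRNA and move the ribosome along the message, and release factors free the finished chain at the stop codon. In most cells the amount of translation is set by phosphorylation, of eIF2 by stress kinases, of the eIF4E-binding proteins by mTOR and of eEF2 by its kinase, none of which mRNA arrays record. Many mRNAs of this machinery start with a 5′ terminal oligopyrimidine tract, a C followed by a run of C and T, which couples their translation to mTOR.

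The annotated starts of the members show how such tracts look here. Each window below, from RefSeq on GRCm38.p6, holds the 15 bases before the annotated start and the 15 bases from it, 5′ to 3′ on the transcribed strand, and the capitals mark the unbroken run of C and T that touches the start. Eef1a1, Eef1a2, Eef1b2 and Eef2 are shown because they are the elongation factors for which the table had a promoter, and Eif3f and Eif2s3x because they are the members that met the criterion given after the sequences.
Eef1a1, chr9:78481710-78481739, minus strand: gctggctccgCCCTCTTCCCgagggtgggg
Eef1a2, chr2:181157001-181157030, minus strand: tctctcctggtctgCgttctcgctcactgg
Eef1b2, chr1:63176816-63176845, plus strand: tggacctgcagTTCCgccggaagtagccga
Eef2, chr10:81176616-81176645, plus strand: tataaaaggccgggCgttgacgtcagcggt
Eif3f, chr7:108934400-108934429, plus strand: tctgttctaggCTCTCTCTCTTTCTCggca
Eif2s3x, chrX:94212637-94212666, minus strand: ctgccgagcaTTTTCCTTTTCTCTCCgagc

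The tract was counted when the annotated first base was C and the next 4 bases were all C or T. It was found in 2 of 63 member promoters (3.17%), against 2.51% of the 32851 promoters in the table, with 48 member genes matched. In Eef1a1 a run of 10 pyrimidines crosses the annotated start, but its alignment to that start did not meet the criterion. Allowing the tract to begin up to 5 bases before or after the start, a setting chosen after the first count was known, gave 15 of 63 member promoters (23.8%) and 18.3% of all promoters. At the start itself the members' share was close to the background, and annotated starts can lie some bases away from the true ones.

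The arrays of a design were alike. The median intensity lay between 32.3 and 44.5 on the 9 arrays, and log2 intensities of replicates correlated across probe sets at r of 0.981 to 0.987. All 10 endothelial marker genes fixed for the check had a probe set above the floor used here, the 40th percentile of each array. Among all genes with 1 symbol, 72.4% had one. Of the 10, 7 reached a percentile over 90 on some design, among them Cldn5, Cdh5 and Kdr. On a single design 8.07% to 9.50% of all genes did. In design C, however, Kdr lay at 49.6, and Pecam1 lay at 52.4 in design A and Egfl7 at 30.5 in design C. A probe set above the floor was also found for 6 of 7 mural, 5 of 7 neuronal and photoreceptor and 2 of 5 microglial markers measured. These counts stand beside the same 72.4% of all genes. None of these marker genes reached 90. Their highest gene positions on any design were 59.5 for mural genes, 70.8 for neuronal and photoreceptor genes and 70.2 for microglial genes. Single probe sets reached 63.1 for Rgs5, 77.7 for Tubb3 and 87.2 for Csf1r. Whether mural, neuronal or microglial cells contributed to the factor signals was not tested. The floor passes a fixed share of all probe sets, so a signal below it is low for the array and says nothing about absence. In sorted bulk cells, fewer cells of a type and less RNA per cell cannot be told apart.

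Translation factor probe sets passed the floor more often than all probe sets in designs A and C, but not in design B. At least 1 probe set lay above the floor on all 3 arrays of its design for 57 of the 61 genes, or 93.4%, against 72.4% of all genes with 1 symbol. The missing ones were Eef1g, Eif2s2, Eif4h and Eif5a. A gene with several probe sets passes more easily, and 39 of the 61 members had 2 or more, against 7645 of the 15964 genes. By probe set, 53 of 72 members passed in design A beside 58.5% of all probe sets with 1 symbol, 23 of 39 in design B beside 59.3%, and 22 of 29 in design C beside 58.1%. The share of members in design B, 58.97%, was thus no higher than its background, while it was 73.6% in design A and 75.9% in design C.

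The position of a gene is given below as a percentile rank (0 lowest, 100 highest) of its signal within the whole array, taken as the mean of its probe sets there and then of the 3 arrays. The median over member genes was 66.7 ± 1.95 (SD, n = 3 arrays) in design A, where all genes had a median of 51.96. It was 51.7 ± 3.1 in design B and 65.7 ± 4.6 in design C, where all genes had medians of 52.8 and 52.3. Genes over percentile 90 numbered 9 of 51 members in design A beside 8.70% of all genes, 0 of 25 in design B beside 8.07%, and 7 of 22 in design C beside 9.50%. Of those 7, Eef2 and Eif3c were over 90 on plain probe sets, and Eif1ax, Eif2b4, Eif3i, Eif4e and Eif5a2 on probe sets marked as shared, relaxed or incomplete. Of the 22 member probe sets that passed in design C, 12 were among the 18 plain ones, whose identifiers carry no mark for shared, relaxed or incomplete probes. A probe set's signal depends on its probes as well as on its transcript, so positions of different genes are not an order of their mRNA amounts.

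**Figure D1:**
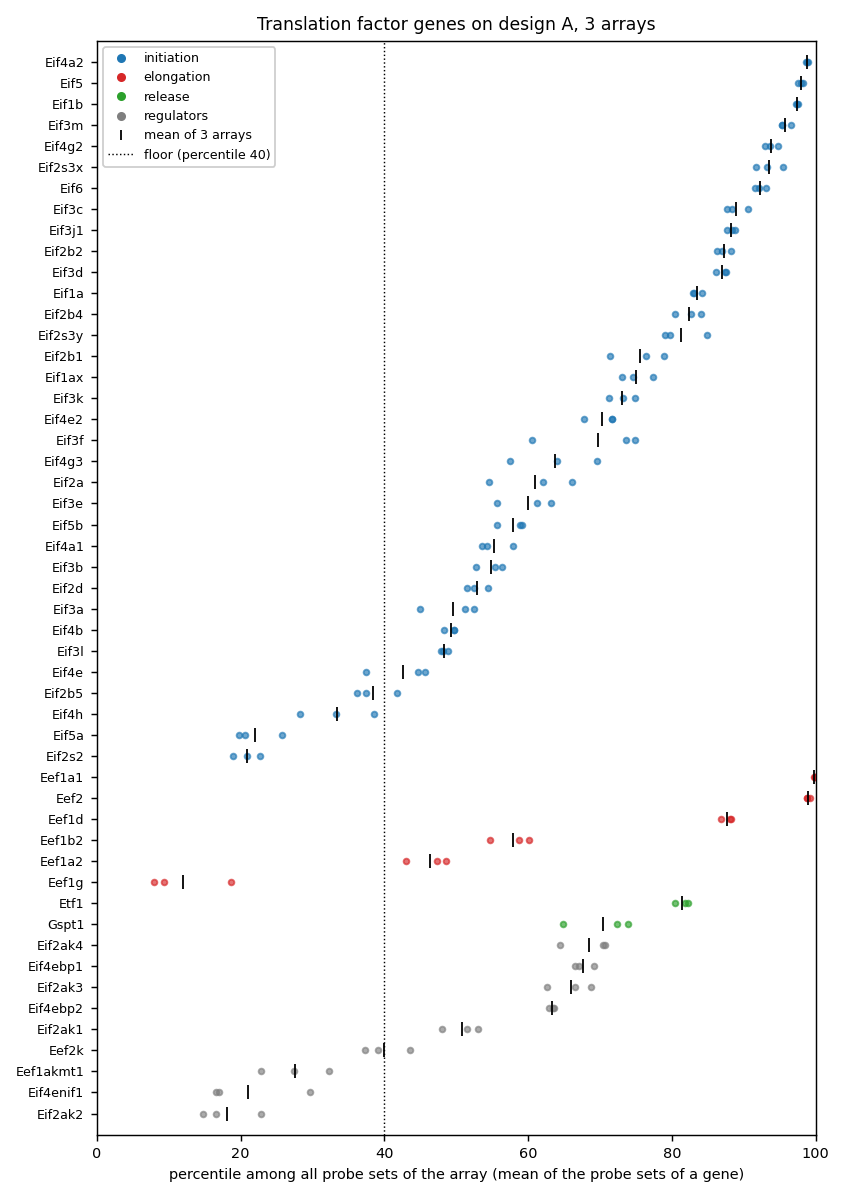
Position of the 51 translation factor genes of design A, as percentile among all probe sets of the array (horizontal axis, 0 to 100). Each point is 1 array, the tick is the mean of 3 arrays, colours give the role, and the dotted line is the floor at percentile 40. Eef1a1 and Eef2 lie at the right edge and Eef1g at the left, so the elongation factors span nearly the whole axis.

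The elongation factors held both the highest and some of the lowest positions. Eef1a1, which carries aminoacyl-tRNA to the ribosome, read 3079, 3192 and 3318 in replicates 1 to 3 of design A, at percentile 99.9 ± 0.026 (SD, n = 3), the highest position of any member. Eef2, the GTPase that moves the ribosome by a codon, read 1322, 1701 and 1256 there, at percentile 98.98 ± 0.25. In design C another Eef2 probe set read 332, 337 and 334, at 96.7 ± 0.56. Both Eef1a1 and Eef2 were thus near the top on every array of designs A and C on which they had a probe set. The Eef2 probe set of design B did not follow, with 28.6, 20.1 and 23.3, at 26.4 ± 6.3 and below the floor on all 3 arrays.

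Eef1a2 is the copy of Eef1a1 used in mature neurons and muscle. Its intensities were 36.1, 41.2 and 42.7 in design A, at percentile 46.3 ± 2.97 (SD, n = 3), just above floors of 33.5 to 34.9. The nucleotide exchange complex that recharges eEF1A with GTP is formed by Eef1b2, Eef1d and Eef1g. Eef1d read 197, 226 and 204, at percentile 87.7 ± 0.82. Eef1b2 had probe sets at 81.0 ± 2.5 and 34.7 ± 3.6 in design A and at 82.2 ± 0.75 and 35.7 ± 3.9 in design C, so that each design held 1 high and 1 low probe set. In design A the high one is marked as relaxed and the low one, below the floor, is plain, whereas both of design C are plain. The 144, 121 and 143 of the higher one in design A did not overlap the 32.2, 27.3 and 30.5 of the lower one. Eef1g, the structural subunit of that complex, was low on both designs that carry it with 1 symbol. It read 12.4, 11.7 and 19.7 in design A, at 11.98 ± 5.9, and 6.84, 2.51 and 7.06 in design B, at 1.67 ± 1.35, never above the floor.

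**Figure D2:**
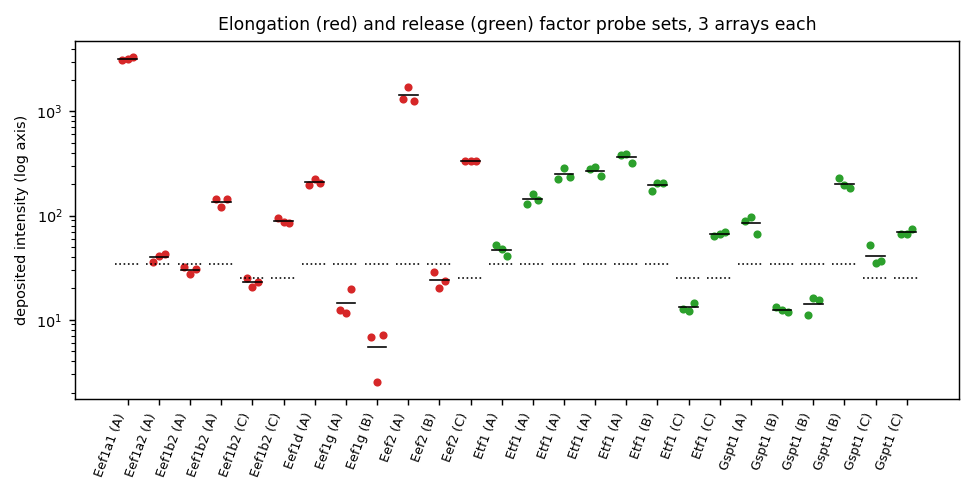
Deposited intensity (vertical axis, logarithmic) of every probe set of the elongation factors (red) and release factors (green), with the design in brackets. Points are the 3 arrays, bars their mean and dotted lines the mean floor of the design. Eef1a1 reads 3079 or more on all 3 arrays, whereas Eef1g stays under the floor on both designs.

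Initiation factors were set against elongation factors on the same arrays. The initiation list held 39 genes with 84 probe sets and the elongation list 6 genes with 12 probe sets. In design A, the median position was 72.4 ± 1.06 over 34 initiation genes and 72.8 ± 1.1 over 6 elongation genes (SD, n = 3 arrays). The elongation minus initiation difference was 2.16, -0.89 and 0.014 percentile points on the 3 arrays, with a mean of 0.43 ± 1.6, which is smaller than its own spread (exact two-sided sign-flip permutation test over arrays, p = 0.75, with 0.25 the smallest p that 3 arrays allow). With 3 arrays this test cannot reach 0.05, and the spread between arrays does not cover the differences between genes and their probes. At the upper end, 2 of 6 elongation genes and 7 of 34 initiation genes lay over percentile 90, beside 8.70% of all genes. With only 6 elongation genes, these counts do not set the lists apart. The lowest positions were 11.98 for elongation and 20.9 for initiation. The elongation minus initiation difference turned with the choice of probe sets, to -10.1 points with plain probe sets alone and to 10.6 with probe sets counted in place of genes. It became -14.9 with Eif5a, which also assists elongation, moved to the elongation list, and -15.1 with every Eif symbol set against every Eef symbol.

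Designs B and C carried 2 elongation genes each. In design B, where these were Eef1g and Eef2, the elongation median of 14.0 ± 3.7 lay below the initiation median of 42.3 ± 1.1 over 12 genes on all 3 arrays, with differences of -25.6, -31.3 and -27.8 points. The mean elongation minus initiation difference was -28.2 ± 2.9 (exact two-sided sign-flip permutation test, p = 0.25, the smallest possible here). With every Eif symbol set against every Eef symbol, which adds the regulators, the design B difference turned to 6.99. The elongation median of design B rests on 1 probe set per gene, both below the floor on all 3 arrays. The Eef1g one is marked as incomplete, and Eef2 lay at 98.98 in design A and 96.7 in design C. In design C, where these were Eef1b2 and Eef2, the elongation median of 77.8 ± 0.73 lay below the initiation median of 84.98 ± 1.2 over 13 genes, with a difference of -7.13 ± 1.9 (exact two-sided sign-flip permutation test, p = 0.25). Taking only the brightest probe set per gene turned the design C difference to 4.50, and with plain probe sets alone it became 29.8. It was also above 0 with means over genes (5.22) and with Eif5a2 moved to the elongation list (15.1), so the direction in design C changed with several settings.

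**Figure D3:**
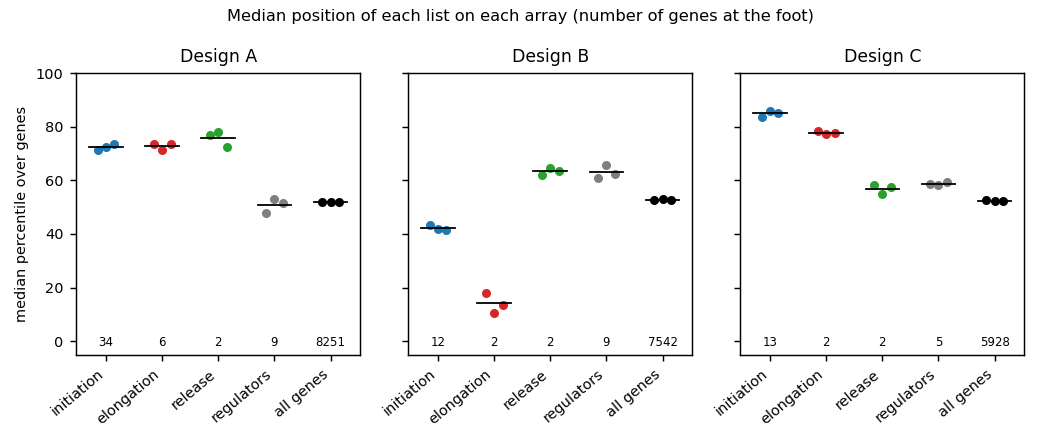
Median percentile over the genes of each list (vertical axis) on each array of designs A, B and C, with bars for the mean of 3 arrays and the number of genes at the foot. Initiation and elongation coincide in design A near 72, and elongation lies lower in design B, where it holds 2 genes, both below the floor.

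In the eIF1 group, which prepares the small subunit, 9 of 11 probe sets passed the floor, beside 58.1% to 59.3% of all probe sets. The 3 over percentile 90 were that of Eif1b and ones of Eif1ax marked as shared. By gene position, Eif1b in design A and Eif1ax in design C lay over 90, beside 8.70% and 9.50% of all genes. Eif1b, a close relative of the start-codon selection factor eIF1, read 814, 786 and 700.4 in design A, at percentile 97.4 ± 0.15 (SD, n = 3). Eif1a and Eif1ax encode eIF1A, which with eIF1 opens the subunit for scanning, and Eif1a had a mean position of 83.4 ± 0.73 over 2 probe sets in design A. Eif1ax had 8 probe sets, 6 of them above the floor, and they ranged from percentile 4.44 to 99.2, the widest gap within any member. Its gene position was 75.0 ± 2.2 in design A, 45.3 ± 0.95 in design B and 95.7 ± 0.17 in design C. The highest of them read 745, 785 and 925 in design B, and its identifier marks it as shared with similar sequences.

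Among the subunits of eIF2, which brings the initiator tRNA as a complex with GTP, Eif2s3x read 309, 378 and 472 in design A, highest in replicate 3, at 93.5 ± 1.9 (SD, n = 3). Its 2 probe sets in design C lay at 70.8 ± 2.9 and 1.56 ± 0.72, with 52.4, 61.1 and 58.6 on the higher, a relaxed one, and 4.39, 3.84 and 3.24 on the lower. Eif2s3y, the Y-linked copy of the same subunit, read 169.5, 126.5 and 122, at 81.2 ± 3.2, on a probe set marked as shared. Eif2s2, the beta subunit, read 29.98, 34.9 and 30.5 on one probe set and 13.0, 4.41 and 7.73 on the other, so that neither passed the floor on all 3 arrays. All 5 subunits of eIF2B, the exchange factor that reloads eIF2 with GTP, had a probe set above the floor, beside 72.4% of all genes. In design A, Eif2b2 lay at 87.2 ± 0.99, Eif2b4 at 82.4 ± 1.8, on a probe set marked as shared, and Eif2b1 at 75.6 ± 3.9. A shared Eif2b2 probe set of design B lay at 39.2 ± 2.9, above the floor on 1 of 3 arrays. Eif2b4 reached 99.0 ± 0.13 in design C, with 707, 649.6 and 603, again on a probe set marked as shared. The catalytic subunit Eif2b5 had plain probe sets at 69.5 ± 2.0 and 7.46 ± 3.8 on the same arrays, with 74.1, 88.1 and 76.8 against 8.24, 14.6 and 10.1. Eif2b3 lay at 83.5 ± 1.8 in design B and at 47.97 ± 2.7 in design C. Of the 3 eIF2 and 5 eIF2B genes measured, Eif2s2 was thus the one with no probe set above the floor. Eif2a and Eif2d, which can deliver initiator tRNA outside the eIF2 route, lay nearer to the middle of design A, at 60.9 ± 5.9 and 52.8 ± 1.5.

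In the scaffold eIF3, the largest initiation factor, 12 of 19 probe sets passed the floor, close to the 58.1% to 59.3% of all probe sets that did. Each of the 11 subunits measured had at least 1 of these, beside 72.4% of all genes. With their best probe set 5 subunits reached percentile 90, a count for which no share over all genes was taken. By gene position, 1 of 10 eIF3 genes lay over 90 in design A, beside 8.70% of all genes. In design B 0 of 3 did, beside 8.07%, and in design C 2 of 2, beside 9.50%. Eif3m read 511, 517 and 572 in design A, at 95.8 ± 0.68 (SD, n = 3), the highest of the complex. Eif3c was the member whose probe sets lay closest across designs, at 88.9 ± 1.5 in design A and 90.5 ± 0.74 in design C. Eif3l read 366, 460 and 355 on one probe set, at 93.8 ± 0.80, and 6.73, 4.64 and 8.49 on another, at 2.85 ± 1.6, the latter marked as relaxed. These did not overlap on any array. Eif3j1 lay at 88.2 ± 0.56, Eif3d at 87.0 ± 0.78 and Eif3k at 73.1 ± 1.9 in design A. Eif3f read 99.8, 59.4 and 91.8 in design A, lowest in replicate 2, at 69.7 ± 7.9, whereas in design B a relaxed probe set read 14.3, 14.7 and 15.2, at 12.6 ± 0.41. Every one of the 4 eIF3 probe sets of design B lay below the floor, and all 4 are marked as shared or relaxed. Among them Eif3d read 9.91, 16.8 and 20.1, whereas its plain probe set in design A read 186, 209.5 and 193. Eif3i likewise had low probe sets in design B and a high one, marked as relaxed, in design C, with 29.1, 28.6 and 28.8 on the higher of its probe sets of design B and 191, 175 and 168 in design C, at 92.5 ± 0.48. Eif3b had a plain probe set at 90.8 ± 1.2 and an incomplete one at 18.9 ± 3.0 on the same arrays of design A. Eif3e had plain probe sets at 79.8 ± 2.3 and 40.3 ± 6.4 there, the second above the floor on 2 of 3 arrays. Eif3a, the core subunit on which the complex assembles, lay near the middle at 49.6 ± 3.99. Much of the span of eIF3 thus lay between probe sets of the same subunit.

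The cap-binding machinery combines a helicase, its partners, the cap-binding protein and a scaffold. Eif4a2, an RNA helicase that unwinds leader sequences, read 1262, 1422 and 1261 in design A, at 98.9 ± 0.13 (SD, n = 3). Its near copy Eif4a1 was measured by a single probe set marked as relaxed and read 47.9, 49.3 and 54.2, at 55.3 ± 2.3. Their sequences are so alike that probes may not separate the transcripts fully. The helicase partner Eif4h read 28.4, 25.3 and 33.7 and stayed below the floor, at 33.4 ± 5.1. Eif4b, the other partner, had a shared probe set at 98.5 ± 1.00, plain ones at 26.9 ± 2.1 and 17.2 ± 1.5, and a relaxed one at 54.4 ± 3.0. The shared probe set read 1589, 773 and 1315, lowest in replicate 2, and its range of 1.04 log2 units was the only one over 1 among the 53 member probe sets above the floor in design A, where 1.03% of all such probe sets exceeded 1. None of the members above the floor in designs B and C exceeded it, beside 1.31% and 0.781% of all.

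Eif4e, which binds the cap itself, read 46.9, 47.7 and 40.1 on the plain probe set of design A, at 50.7 ± 3.9 (SD, n = 3). A relaxed Eif4e probe set of design A read 32.2, 31.0 and 26.5, at 34.5 ± 5.0, below the floor on all 3 arrays. In design C an Eif4e probe set marked as shared read 505, 493 and 503, at 98.3 ± 0.28. The cap-binding relative Eif4e2 had 7 probe sets between 25.1 and 83.7, with 4 above the floor, and Eif4e1b, known from oocytes, lay at 47.7 ± 1.1. In design C the lowest probe set of Eif4e2 read 13.4, 19.4 and 18.4, below the floor on all 3 arrays. Eif4e3, another relative, lay at 68.97 ± 2.3 in design B, where 1 of its probe sets had a range of 0.62 log2 units over the 3 arrays. In the cap-binding family 9 of 13 probe sets passed the floor, beside 58.1% to 59.3% of all probe sets. Each of its 4 genes had at least 1 of these, beside 72.4% of all genes. None of the Eif4e2 probe sets in design C passed. Eif4g2, a scaffold that lacks the eIF4E site and serves cap-independent initiation, read 361, 472 and 361 in design A, at 93.8 ± 0.93, and lay at 83.9 ± 0.82 in design B. Eif4g3, which does bind eIF4E, read 79.7, 53.9 and 64.8 in design A, at 63.7 ± 6.1, and had a mean position of 50.6 ± 2.8 in design C.

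The late-acting factors included further high positions. Eif5, which triggers GTP hydrolysis on eIF2, read 817, 961 and 1001 in design A, at 97.9 ± 0.38 (SD, n = 3). Eif5b, which joins the ribosomal subunits, lay at 57.9 ± 1.9 in design A and 65.4 ± 0.54 in design B. Eif6, which keeps the large subunit free until it matures, read 328, 367 and 287 in design A, at 92.3 ± 0.74, and 98.2, 102.1 and 102.1 in design C, at 84.98 ± 1.2. In design B it read 11.1, 11.4 and 9.70 and did not pass the floor. Eif5a, the hypusine-bearing factor that helps ribosomes through stalls, read 19.3, 23.5 and 21.0, at 22.0 ± 3.2, with no other probe set. Its relative Eif5a2 read 10.2, 9.62 and 11.5 in design B, at 6.56 ± 0.97, and 240, 181 and 246 in design C, at 94.2 ± 0.87, the latter on a probe set marked as built from an incomplete set of probes.

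Of the release factor probe sets, 11 of 14 passed the floor, beside 58.1% to 59.3% of all probe sets. Etf1, the protein that reads the stop codons, passed with 7 of 8 probe sets, and its plain probe set of highest signal read 377, 389 and 322 in design A, at 93.2 ± 0.47 (SD, n = 3). Gspt1, the GTPase that works with it, passed with 4 of 6, close to the share of all probe sets. It read 89.4, 96.9 and 66.9 in design A, at 70.4 ± 4.8, and 230.0, 194 and 184 on the highest probe set of design B, at 90.3 ± 1.4. Another plain Gspt1 probe set of design B read 11.0, 16.0 and 15.6. Each release factor thus had probe sets above the floor and at least 1 below it.

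The regulator genes carried by the 3 designs were partly different, so their medians do not compare the same genes. The 9 regulator genes of design A had a median position of 50.9 ± 2.6 (SD, n = 3 arrays), below the 51.96 of all genes by less than its SD. In designs B and C the medians were 63.0 ± 2.6 and 58.7 ± 0.54, beside 52.8 and 52.3 for all genes. In design B 11 of 13 regulator probe sets passed the floor, beside 59.3% of all probe sets. In designs A and C, 6 of 11 and 4 of 6 did, beside 58.5% and 58.1%. Of the kinases that phosphorylate eIF2, Eif2ak4, which senses uncharged tRNA, lay at 68.5 ± 3.5, Eif2ak3, which senses unfolded protein in the endoplasmic reticulum, at 66.0 ± 3.1, and Eif2ak1, the haem-regulated kinase, at 50.9 ± 2.6 in design A. Eif2ak2, activated by double-stranded RNA and induced by interferon, read 16.1, 21.6 and 18.2 in design A, at 18.1 ± 4.2, but 81.6, 93.5 and 110.3 in design B, at 75.5 ± 4.1. A probe set for Eif2ak1 marked as shared read 522, 267 and 455 in design B, lowest in replicate 2, at 96.5 ± 2.05.

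The inhibitors that hold eIF4E until mTOR phosphorylates them had probe sets above the floor. Eif4ebp1 read 72.4, 79.9 and 70.1 in design A, at 67.6 ± 1.4 (SD, n = 3). Eif4ebp2 had plain probe sets at 90.9 ± 1.04, 82.1 ± 2.4 and 17.1 ± 2.3 on the same arrays, with 303, 256 and 280 on the highest and 17.7, 19.4 and 16.9 on the lowest. In design C a relaxed probe set read 3.49, 5.71 and 5.04. Eif4enif1, which carries eIF4E into the nucleus, read 131, 118 and 126 on a plain probe set of design B, at 82.4 ± 0.72, and lay below the floor on its other 2 probe sets. The eIF4E inhibitors Eif4ebp2 and Eif4enif1 thus had probe sets at both ends of the scale. Eef2k, the calcium-dependent kinase that inactivates eEF2, ranged over 5 probe sets from 29.9 to 84.2, with 3 above the floor. Eef1e1, a component of the aminoacyl-tRNA synthetase complex, read 135, 166 and 147, at 85.6 ± 2.1. The methyltransferases of eEF1A and eEF2 stayed between 27.5 and 67.4, and none of their 6 probe sets reached 90. Eef1akmt1 read 24.2, 28.1 and 22.6 in design A, below the floor, and 70.6, 72.2 and 70.3 in design B on a probe set marked as shared. Eef1aknmt read 55.95, 48.4 and 55.6 in design B and 24.4, 21.2 and 22.5, below the floor, in design C. Eef2kmt read 59.1, 40.1 and 41.0 in design C, highest in replicate 1. Eif1ad, named for its likeness to eIF1A, lay at 62.1 ± 3.4 in design B.

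Probe sets of the same gene often disagreed. Of the 39 members with 2 or more probe sets, 23 had at least 1 above the floor on all arrays and at least 1 below it on all arrays, or 58.97%, against 49.2% of all genes with 2 or more. The median gap between the lowest and the highest probe set of a gene was 54.3 percentile points for members and 37.6 for all such genes. Genes with more probe sets can show a wider gap, and the number of probe sets was not matched. Of the 38 member probe sets marked as shared, relaxed or incomplete, 24 passed the floor (63.2%), against 74 of 102 plain ones (72.5%). Among all probe sets with 1 symbol the shares were 51.2% and 61.1%. The relaxed class passed in 7 of 15 members (46.7%) and the class of shared families in 11 of 14 (78.6%), against 43.7% and 62.6% of all, so the classes differed among themselves. By design, marked members passed in 9 of 12 cases for A, 5 of 15 for B and 10 of 11 for C, and plain ones in 44 of 60, 18 of 24 and 12 of 18. Marked probe sets thus passed least often in design B, where none of the 5 relaxed ones did, and their share was above that of plain ones in designs A and C. The part of the marking in the disagreement was not tested, and Eif6, Eef2 and Eif2b5 differed between plain probe sets.

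**Figure D4:**
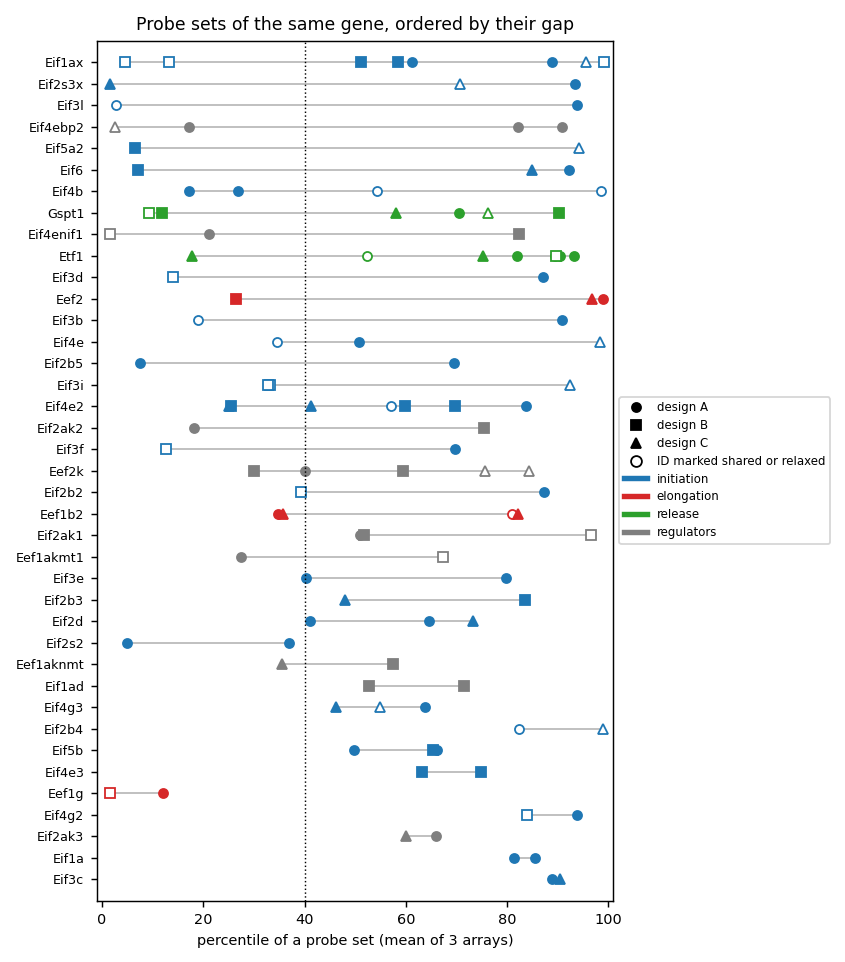
Percentile of every probe set (horizontal axis, mean of 3 arrays) for the 39 genes with 2 or more, ordered by gap. Symbols give the design, open symbols the identifiers marked as shared, relaxed or incomplete, colours the role and the dotted line the floor. Eif1ax spans 4.44 to 99.2, and Eif3c has both probe sets close to 90.

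The replicate arrays placed members much alike. The median range over 3 arrays of member probe sets above the floor was 0.29 log2 units in design A, 0.28 in design B and 0.20 in design C, against 0.24, 0.23 and 0.23 for all probe sets above it. In replicate 2 of design A, member log2 signals lay 0.058 above their own means in the median, and those of all probe sets lay 0.042 above. That array was the highest of the 3 for 27 of 53 members, or 50.9%, and for 46.8% of all probe sets, so members and all probe sets moved the same way on it. The members' median shifts on the other arrays lay between -0.053 and 0.038, and those of all probe sets between -0.034 and 0.028.

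Other genes of translation control, listed for comparison, were measured for 32 of 34 names, and each of the 32 had a probe set above the floor. These shares stand beside 72.4% of all genes, and 43 of their 59 probe sets passed beside 58.1% to 59.3% of all probe sets. Denr, which helps recycle ribosomes and reinitiate, lay at 99.7 ± 0.078 in design B (SD, n = 3) and at 63.3 ± 5.6 in design C. Pabpc1, the poly(A)-binding partner of eIF4G, lay at 98.2 ± 0.38 in design A but at 25.7 ± 9.4 in design C, where it did not pass the floor. Larp1, which binds oligopyrimidine tracts, lay at 90.8 ± 1.05 in design A and 57.2 ± 1.4 in design B. Atf4, the transcription factor whose translation rises when eIF2 is phosphorylated, had a single position of 94.3 ± 0.42. The 9 mitochondrial factors had a median of 73.1 for their highest design and 1, Mrrf, over percentile 90. Positions of these genes thus also differed between designs.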

How the data were processed

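Signals were measured on 9 arrays, 3 of each design. The deposited signals are intensities on a linear scale, 1 for each probe set. The sources used here do not say how the authors summarised and scaled them, and no detection calls were used. Probe sets with 1 symbol in the platform annotation were kept. All 140 member probe sets matched RefSeq (GRCm38.p6) by Entrez identifier. Percentile ranks were taken over every probe set of an array, and the floor was percentile 40. A value of 0 took the smallest positive value of its array before log2. Lists were compared within arrays, with an exact sign-flip permutation test over 3 arrays and no test over genes. Kinases, binding proteins and methyltransferases, together with Eef1e1 and Eif1ad, formed the regulator list. All elongation and release factors, the highest and lowest gene of each role group, the 3 widest ranges of each design and genes whose probe sets fell above as well as below it were to be named, and any member could be. Members and lists were chosen with earlier results of these data known. Alternatives covered probe set choice, list membership, floors, normalization and leaving out replicates. The code (Python 3.11.15, pandas 2.3.3, NumPy 2.4.6) was tested on simulated data. The number of arrays limits the precision.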

Additional observations from a re-analysis of the deposited data

How the results depend on the processing

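Leaving out 1 replicate changed the 98 positions of a gene on a design by at most 4.55 percentile points, which with 3 arrays is bound by their SD and shows no stability. By more than their SD, 30 of 98 moved with the strongest probe set per gene and 14 of 80 with plain probe sets. The elongation minus initiation difference, in percentile points, ranged without 1 replicate from -0.44 to 1.09 on design A, from -29.5 to -26.7 on design B and from -8.16 to -6.25 on design C. On design A it was -10.1 with plain probe sets, -1.76 with means over genes, 10.6 over probe sets, -15.1 by symbol and -14.9 with Eif5a moved. On design B it was -38.3 with the strongest probe set, -31.1 over probe sets, 6.99 by symbol and -38.7 with Eif5a2 moved. On design C it was 4.50 with the strongest probe set, 29.8 with plain ones, 5.22 with means, 10.2 over probe sets, -10.4 by symbol and 15.1 with Eif5a2 moved, and 0.28 log2 units as log2 signal. The median position of members was 79.1, 66.8 and 76.2 on designs A, B and C with the strongest probe set, 69.0, 56.1 and 55.3 with plain ones, and 69.1, 56.1 and 70.8 over probe sets. Probe sets above the floor numbered 14 on design B with a floor at percentile 60 and 12 on design C with plain ones. Probe sets with a wide range on design A numbered 0 with 50 added and 0 to 1 without 1 replicate (0 without replicate 1 or replicate 2), and with a limit of 0.5 log2 units they numbered 7, 4 and 2. The start tract was in 2 promoters, or 15 when allowed within 5 bases, a setting chosen after seeing the data. The members' shift minus that of all probe sets moved by more than its spread in 1 of 18 comparisons, from 0.0094 to -0.013 log2 units in replicate 1 of design C under quantile normalization, also chosen after seeing the data. The cause of these changes was not tested. No paired analysis was possible because no groups of samples were compared: the designs carry different probe sets and share 1 condition, and the lists were compared within arrays.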
